A study of Mus musculus with 4 samples.

Results

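The MYC, MAX and MXD network was followed through 10 genes chosen by symbol, namely Myc, Mycn, Mycl1, Max, Mxd1, Mxd3, Mxd4, Mxi1, Mnt and Mlx, out of 19564 measured genes. All 10 were present in each of the 4 libraries, and 8 of them reached 1 RPKM (reads scaled to gene length and library size) in at least 1 library. Mycn and Mycl1 did not, and they are described by their levels only. The cells were red cell precursors of mouse fetal liver at embryonic day 14.5, sorted by flow cytometry on TER119, a surface antigen of the erythroid lineage, and CD71, the transferrin receptor. R2 held proerythroblasts with the first basophilic erythroblasts, R3 basophilic erythroblasts of both stages, R4 mainly polychromatophilic and orthochromatophilic cells, and R5 the latest orthochromatophilic cells with reticulocytes. All 4 populations were taken from the animal without culture and carried no treatment or altered gene in the labels, which give no strain. Each population gave 1 library of polyadenylated RNA, so the differences below have no replicates behind them and no p-value was computed.

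MYC is a transcription factor that binds DNA only as a dimer with MAX, at E-box sites, and activates genes of growth, ribosome production and metabolism. The MXD proteins (MXD1, MXD3, MXD4 and MXI1) and MNT compete for MAX, bind the same sites and recruit the SIN3 and histone deacetylase corepressor complex. MLX is a MAX-like partner of MXD1, MXD4, MNT and the nutrient-sensing Mondo proteins. In many lineages a switch from MYC to MXD partners accompanies the exit from proliferation, and falling MYC is known to be needed for late red cell maturation.

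The smallest value above 0 among 6 chosen genes, with 2 to 5 of them used per library, was taken as 1 read over 1 base. That assumption implied between 20700000 and 27400000 reads per library. Globin genes held 5.52% (R2), 59.4% (R3), 80.4% (R4) and 81.9% (R5) of the summed RPKM. RPKM values are shares of a library, so ratios between libraries are given as deposited and after scaling each library by the median of its gene ratios (median scaling). Ratios between genes of 1 library do not depend on that choice. All 10 erythroid markers were at 1 RPKM or more in every library. All 11 granulocyte markers were too, and their summed level was 6232 RPKM in R2, 439 RPKM in R3, 240 RPKM in R4 and 479 RPKM in R5. Macrophage markers, with 8 to 10 of 10 at 1 RPKM or more per library, summed to between 29.2 and 114 RPKM, and megakaryocyte markers, with 5 to 8 of 8, to between 23.7 and 69.8 RPKM. All 8 hepatocyte markers were at 1 RPKM or more and summed to 219 RPKM in R2, 536 RPKM in R3, 183 RPKM in R4 and 392 RPKM in R5. Lymphoid markers, with 0 to 5 of 6, summed to between 1.35 and 29.7 RPKM, and Cd3e was listed at 0 in every library. In bulk RNA of sorted cells, fewer cells of a type and less RNA per cell cannot be told apart.

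Promoter windows of 250 bases before and 50 after the start, from RefSeq on build GRCm38.p6, were matched for 9 of the 10 members, with Mxi1 represented by several starts, and Myc was not matched. The E-box that MYC, MXD and MNT dimers share, CACGTG, reads the same on both strands and occurred in 8.09% of 27025 genes and in 7.15% of 32851 windows. It was found in 4 members, Max, Mxd4, Mnt and Mlx, and in none of the windows of Mycn, Mycl1, Mxd1, Mxd3 and Mxi1. These stretches are shown because the network's own binding letters lie in the promoters of its own genes, with the E-box in capitals. They come from chr12:76962229-76962276 (minus strand), chr5:34187899-34187954 (minus strand), chr11:74830776-74830831 (plus strand) and chr11:101087225-101087280 (plus strand), in that order.
Max: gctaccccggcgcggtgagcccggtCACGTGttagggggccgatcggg
Mxd4: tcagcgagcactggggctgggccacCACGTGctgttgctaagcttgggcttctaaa
Mnt: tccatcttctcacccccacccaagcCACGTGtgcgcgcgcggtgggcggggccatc
Mlx: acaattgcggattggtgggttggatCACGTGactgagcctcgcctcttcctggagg
The E-box began at position -3 from the start in Max and ended at 3, and began at -219 in Mxd4, at -123 in Mnt and at -40 in Mlx. The KLF motif CCNCNCCC, searched on both strands with overlapping matches allowed, occurred 5 times in the Mxd1 window and 7 times in the Mxd3 window. It also occurred 5 times in Mnt and in 1 window of Mxi1, and 4 times in both Mycn and Mycl1, and was present in 49.5% of all windows. The 250 bases before the Mxd1 and Mxd3 starts are shown as the promoters of the main MXD genes of the later libraries, with the motif in capitals, from chr6:86669160-86669409 (minus strand) and chr13:55329732-55329981 (minus strand).
Mxd1: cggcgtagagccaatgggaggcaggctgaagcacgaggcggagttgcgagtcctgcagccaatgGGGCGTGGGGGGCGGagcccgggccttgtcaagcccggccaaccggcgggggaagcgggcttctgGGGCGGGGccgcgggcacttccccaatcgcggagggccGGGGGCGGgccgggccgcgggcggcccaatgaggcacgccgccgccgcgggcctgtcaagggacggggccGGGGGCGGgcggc
Mxd3: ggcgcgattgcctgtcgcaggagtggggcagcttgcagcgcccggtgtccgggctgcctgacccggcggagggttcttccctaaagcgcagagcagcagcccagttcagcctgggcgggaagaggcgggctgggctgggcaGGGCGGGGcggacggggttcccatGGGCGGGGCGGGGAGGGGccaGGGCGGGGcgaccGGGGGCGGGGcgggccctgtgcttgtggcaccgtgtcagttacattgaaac
A GATA word, meaning AGATAA, or else TGATAA, or else AGATAG, or else TGATAG, was present on either strand in 29.8% of windows and, among the members, in Mlx alone. The E2F word TTTGGCGC or its variant TTTCGCGC, on either strand, was present in 0.813% of windows and 3 times in that of Mycn. A match here is a run of letters and says nothing of binding.

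Myc, the activator of the network, stood at 118 RPKM in R2, 15.8 RPKM in R3, 7.21 RPKM in R4 and 13.5 RPKM in R5. R2 was far above the other libraries, R4 was the lowest, and R5 lay above R4. By estimated reads these values rested on 7369 reads in R2, 1101 reads in R3, 537 reads in R4 and 762 reads in R5, and their 95% counting intervals did not overlap between R5, at 12.6 to 14.5 RPKM, and R4, at 6.61 to 7.85 RPKM. Within each library Myc ranked, among the genes past the filter, at percentile 94.7 (R2), 77.5 (R3), 77.0 (R4) and 83.6 (R5). The summed granulocyte markers moved alongside Myc, highest in R2, lowest in R4 and higher in R5 than in R4, and their part in the Myc values was not tested.

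Mycn, the paralog best known from neural and early embryonic tissue, was at 0.98 RPKM in R2, 0.25 RPKM in R3, 0.18 RPKM in R4 and 0.30 RPKM in R5. Mycl1, the paralog named for lung cancer, was at 0.48 RPKM in R2, 0.08 RPKM in R3, 0.03 RPKM in R4 and 0.17 RPKM in R5. Both were low in every library and, as deposited, highest in R2. Mycl1 rested on about 44 reads in R2, 8 reads in R3, 3 reads in R4 and 14 reads in R5. Per length, Myc was the main MYC family transcript in each library.

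Max, the obligate partner of MYC, the MXD proteins and MNT, was at 45.4 RPKM in R2, 19.1 RPKM in R3, 10.4 RPKM in R4 and 11.4 RPKM in R5. Its rank hardly moved, at percentile 84.0 (R2), 81.0 (R3), 83.0 (R4) and 80.6 (R5). Max transcripts per summed transcript of its MYC, MXD and MNT partners came to 0.266 (R2), 0.136 (R3), 0.0861 (R4) and 0.110 (R5), highest in R2 and lowest in R4.

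**Figure D1:**
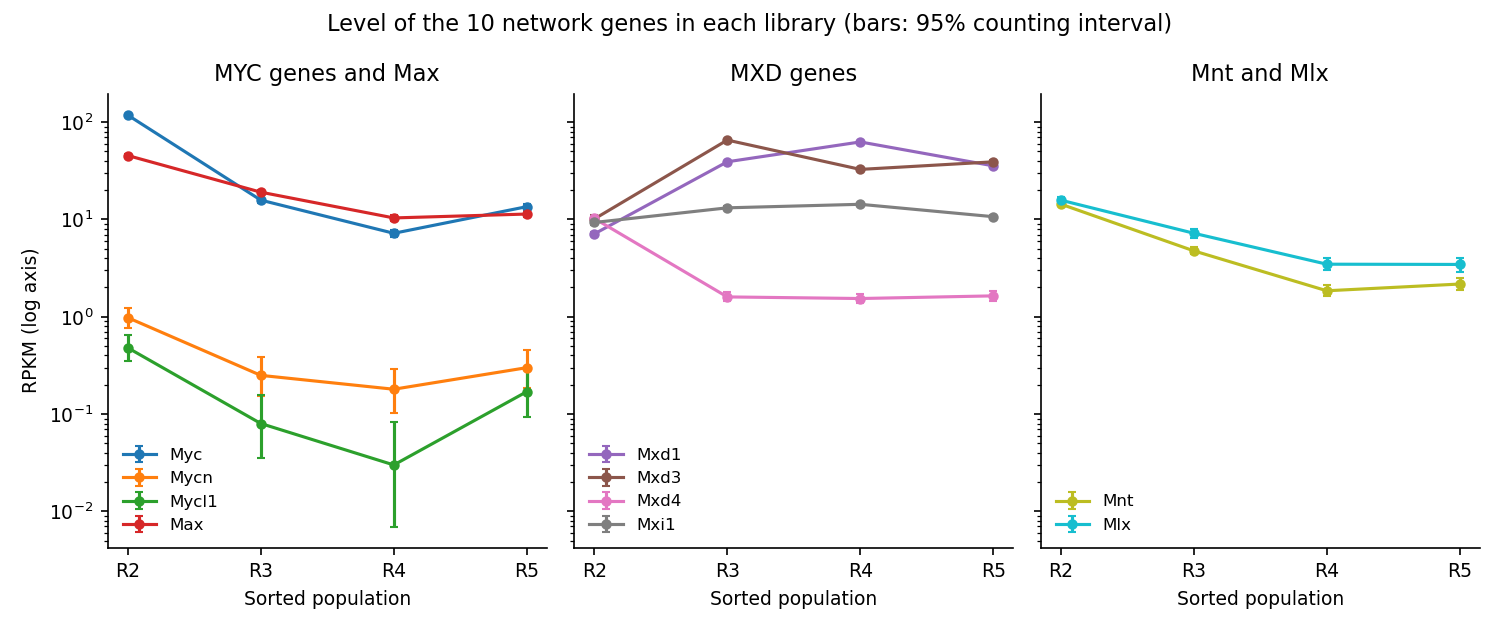
RPKM (log axis) of the 10 genes in the sorted populations R2, R3, R4 and R5, 1 library each, in panels for the MYC genes with Max, the MXD genes, and Mnt with Mlx. Points are deposited values and bars are 95% counting intervals. Myc is at 118 RPKM in R2 and under 16 in the others, while Mxd1 and Mxd3 are lowest in R2.

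Mxd1, a repressor induced in many differentiating cells, was at 7.10 RPKM in R2, 39.2 RPKM in R3, 62.6 RPKM in R4 and 35.6 RPKM in R5. Its highest library was R4 and its lowest R2. Its rank was percentile 96.6 in R4, against 37.0 in R2. Mxd3, the member described in proliferating cells at S phase, was at 10.1 RPKM in R2, 65.5 RPKM in R3, 32.7 RPKM in R4 and 39.1 RPKM in R5. As deposited it was highest in R3, while with median scaling R3, R4 and R5 were nearly level, at 55.5 for R3, 58.9 for R4 and 54.6 for R5, and Mxd1 was still highest in R4. The annotated exons of Mxd3 share 105 bases, 4.43% of their length, with Prelid1 on the opposite strand, and whether reads were counted by strand is not given. Prelid1 reads spread evenly could add 11.9 RPKM to Mxd3 in R2, more than its whole value, but 4.32 in R3, 1.78 in R4 and 3.62 in R5. Taking those reads away would leave Mxd3 at 35.5 RPKM in R5. In R2 they exceed its value, so this estimate cannot hold in full there, and Mxd3 was set to 0 as a lower limit. The size of its ratios to R2 is therefore uncertain. With those reads taken away, the order of Mxd3 and Mxd1 in R5 and of their means would also turn.

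The other MXD genes took different courses. Mxi1, which encodes the MAX interactor also called MXD2, was at 9.31 RPKM in R2, 13.2 RPKM in R3, 14.3 RPKM in R4 and 10.7 RPKM in R5. It was nearly even in RPKM, while its rank was percentile 86.9 in R4, against 43.9 in R2. With median scaling it was not even, at 25.8 in R4 and 14.9 in R5, against 4.28 in R2. Mxd4 was at 10.3 RPKM in R2, 1.60 RPKM in R3, 1.54 RPKM in R4 and 1.64 RPKM in R5. As deposited Mxd4 was highest in R2 and near 1.6 in the rest, while Mxd1 and Mxd3 were lowest in R2. Its rank was percentile 46.7 (R2), 26.9 (R3), 44.1 (R4) and 37.0 (R5). With median scaling it was not level after R2, at 4.71, 1.36, 2.78 and 2.29 across R2, R3, R4 and R5.

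Mnt, the most widely expressed MAX-binding repressor, was at 14.4 RPKM in R2, 4.76 RPKM in R3, 1.85 RPKM in R4 and 2.17 RPKM in R5. Mlx was at 15.8 RPKM in R2, 7.22 RPKM in R3, 3.47 RPKM in R4 and 3.45 RPKM in R5. As deposited both were highest in R2 and nearly level between R4 and R5. Exons of Mlx share 385 bases, 19.3% of their length, with Psmc3ip on the other strand, whose reads could add 0.994 RPKM to Mlx in R5, against 4.10 in R2.

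The order of the members differed between libraries. In R2 Myc came first, then Max, Mlx, Mnt, Mxd4, Mxd3, Mxi1 and Mxd1, and the counting intervals of Mlx and Mnt, of Mxd4 and Mxd3, and of Mxd3 and Mxi1 overlapped. If the possible Prelid1 reads are taken away, Mxd3, set to its lower limit of 0 in R2, would stand last there. In R3 the order was Mxd3, Mxd1, Max, Myc, Mxi1, Mlx, Mnt and Mxd4. In R4 Mxd1 led, followed by Mxd3, Mxi1, Max, Myc, Mlx, Mnt and Mxd4, with the last pair overlapping. In R5 it was Mxd3, Mxd1, Myc, Max, Mxi1, Mlx, Mnt and Mxd4, with Max and Mxi1 overlapping, and Mxd3 just below Mxd1 if the possible Prelid1 reads are taken away. As deposited, Mycn and Mycl1 stood last in all 4, overlapping in R3 and R5.

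R5 against R2 sets the latest erythroblasts beside the earliest. As deposited, Mxd1 and Mxd3 were at least 2-fold higher in R5, on the log2(RPKM + 1) scale used for every ratio between libraries, and Myc, Max, Mxd4, Mnt and Mlx at least 2-fold lower. That scale understates the change of low genes. Thus 2 of 8 members were higher, where 2.74% of 9942 genes were, and 5 were lower, where 76.9% of genes were. The lower share is no greater than that of genes at large. Mxd1 had a log2 ratio of 2.17 and Mxd3 one of 1.85, at percentiles 99.2 and 98.9 of all genes. Myc had a ratio of -3.03, at percentile 1.19, and Mxi1 one of 0.18, at percentile 93.5. The all-gene median was -1.65. With median scaling that median was -0.42, Mxd1 was at 3.57, Mxd3 at 3.30 and Mxi1 at 1.59, and Myc at -1.47, so that 3 members were higher, beside 9.42% of genes, and 1 lower, beside 13.7%. Max, Mxd4, Mnt and Mlx were then at -0.38, -0.80, -0.92 and -0.51, within the limit. With globins removed Mxd4 and Mnt were past it, at -1.09 and -1.23. So were their plain RPKM ratios with median scaling, at 0.486 and 0.458. Of 8 hepatocyte markers, 2 were higher in R5 as deposited and 8 with median scaling, and of 8 megakaryocyte markers 1 and 5. Macrophage markers gave 0 and 5 of 10. All 11 granulocyte markers were lower under both. The part of these markers in the member values was not tested.

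R3 against R2 covers the first step and shares the R2 library with the comparison above. As deposited 2 of 8 members were higher in R3, beside 3.81% of genes, and 5 were lower, beside 55.1% of genes. Mxd3 had a log2 ratio of 2.58, Mxd1 one of 2.31 and Myc one of -2.83. Mxd4 was at -2.11, Mnt at -1.42, Max at -1.21 and Mlx at -1.03, where the all-gene median was -1.09. With median scaling Mxd3, Mxd1 and Mxi1 were higher, at 3.32, 3.003 and 1.20, beside 8.38% of genes. Myc and Mxd4 were lower, at -1.94 and -1.28, beside 18.0% of genes. Calls of Myc, Mxd1, Mxd3 and Mxd4 were the same under both. Hepatocyte markers moved in the direction of Mxd1 and Mxd3, with 7 of 8 higher in R3 as deposited and 8 with median scaling. Of 10 erythroid markers, 7 were higher as deposited and 10 with median scaling. The erythroid list includes Tfrc, the gene of CD71, on which the cells were sorted. The part of the hepatocyte markers in the Mxd1 and Mxd3 values was not tested.

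**Figure D2:**
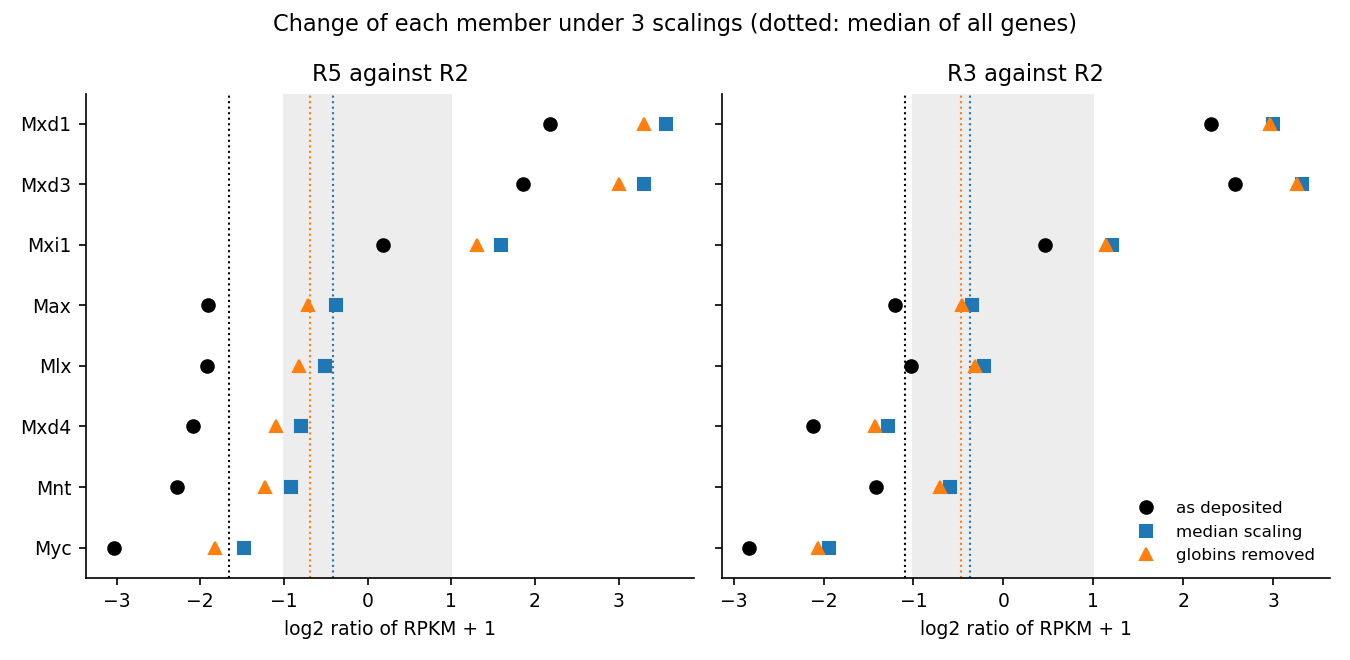
The log2 ratio of RPKM + 1 for the 8 members past the filter, R5 against R2 (left) and R3 against R2 (right), as deposited, with median scaling and with globin genes removed. Dotted lines are all-gene medians and the grey band is under 2-fold. Mxd1 and Mxd3 lie to the right of the band and Myc to the left under each scaling in both panels.

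Between R4 and R3 most of the network moved with the other genes. As deposited 0 members were higher in R4, beside 0.493% of genes, and 2 were lower, beside 32.1%, namely Myc at a log2 ratio of -1.03 and Mnt at -1.02. The all-gene median was -0.77. With median scaling Myc was at -0.04 and Mnt at -0.22, while Mxd1 was at 1.74 and Mxi1 at 1.14. The count was then 2 higher, beside 4.26% of genes, and 0 lower, beside 0.382%. Mxd1 ranked at percentile 98.9 of the deposited ratios, Mxi1 at 95.7 and Mxd4 at 92.3. With median scaling Mxd4 was at 0.68, within the limit, though its plain RPKM ratio was 2.05.

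Between R5 and R4 no member passed 2-fold as deposited, where 3.96% of genes were higher in R5 and 0.604% lower. Myc was at a log2 ratio of 0.82, against an all-gene median of 0.27, and Mxd1 at -0.80. With median scaling Myc was at 0.51 and Mxd1 at -1.17, the 1 member lower beside 2.56% of genes, and 0 members were higher beside 1.75%. Mxd1 stood at percentile 1.51 of the deposited ratios, and Myc at 91.2.

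The ratio of Myc to its MXD antagonists, taken within a library, was 3.21 (R2), 0.132 (R3), 0.0648 (R4) and 0.156 (R5). Their counting intervals were 3.09 to 3.34 for R2, 0.124 to 0.141 for R3, 0.0595 to 0.0707 for R4, and 0.144 to 0.168 for R5. Myc transcripts outnumbered the MXD sum per length in R2 and were fewer in the other 3. The ratio was 20.6-fold lower in R5 than in R2, and 24.3-fold lower in R3 than in R2. It was 2.04-fold lower in R4 than in R3 and 2.40-fold higher in R5 than in R4. The MXD sum itself was 36.8 RPKM in R2, 119 RPKM in R3, 111 RPKM in R4 and 87.0 RPKM in R5. Granulocyte markers were also highest in R2, summing to 6232 RPKM there and 439 RPKM in R3. Their part in the ratio was not tested.

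**Figure D3:**
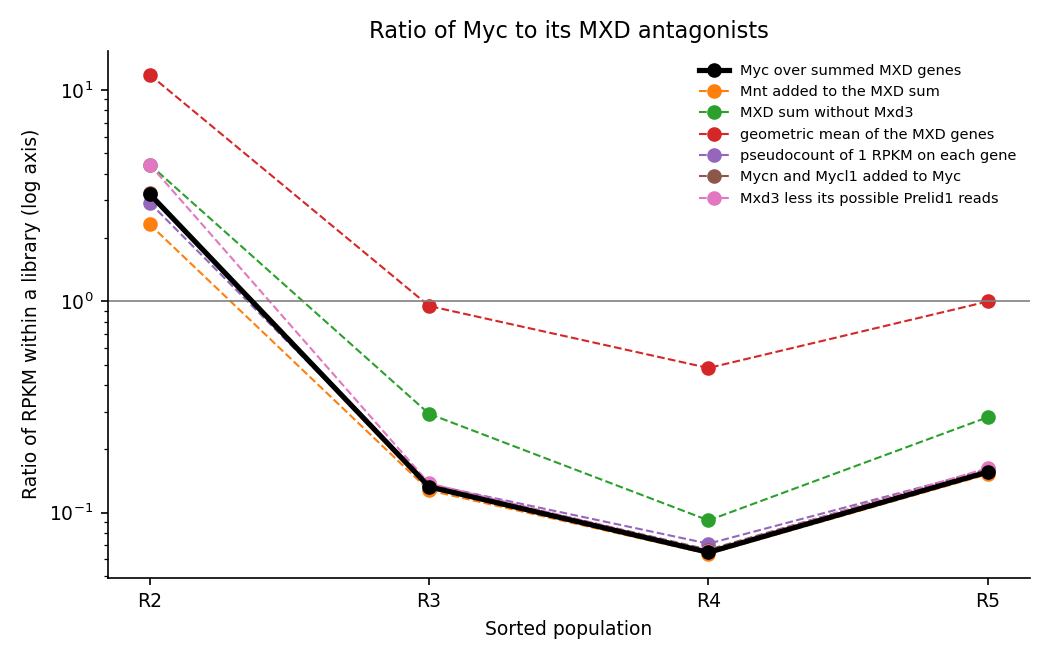
Myc over summed MXD RPKM (Mxd1, Mxd3, Mxd4 and Mxi1) within each library (log axis, black), with other definitions dashed and a grey line at 1. The ratio is 0.156 in R5, against 3.21 in R2. Every definition has its highest value in R2 and its lowest in R4.

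The ratio of Myc to single genes varied most for Mxd1 and Mxd3 and least for Mxd4 and Mnt. Myc over Mxd1 was 16.6 (R2), 0.404 (R3), 0.115 (R4) and 0.381 (R5). Myc over Mxd3 was 11.7 (R2), 0.241 (R3), 0.220 (R4) and 0.346 (R5). Myc stayed above Mxd4 in all, at ratios of 11.5, 9.88, 4.68 and 8.26 across R2, R3, R4 and R5, and above Mnt, at 8.21, 3.32, 3.90 and 6.24 across the same libraries. Myc over Mxi1 was 12.7 (R2), 1.20 (R3), 0.503 (R4) and 1.27 (R5). Myc over Max was 2.60 (R2), 0.829 (R3), 0.695 (R4) and 1.19 (R5). In R3 and R5 a ratio below 1 was seen against Mxd1 and Mxd3 and not against Mxd4, Mxi1 or Mnt.

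The make-up of the MXD sum also differed. In R2 Mxd1 gave 19.3% of it, Mxd3 27.5%, Mxd4 27.9% and Mxi1 25.3%, a nearly even split as deposited. That split would not hold with the possible Prelid1 reads taken away, where Mxd3 was set to its lower limit of 0 in R2. In R3 Mxd3 gave 54.8% and Mxd1 32.8%. In R4 Mxd1 gave 56.3% and Mxd3 29.4%, and in R5 Mxd3 gave 45.0% and Mxd1 40.9%. Mxd4 was under 2% of the sum after R2, and Mxi1 lay between 11.0% and 12.9%.

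**Figure D4:**
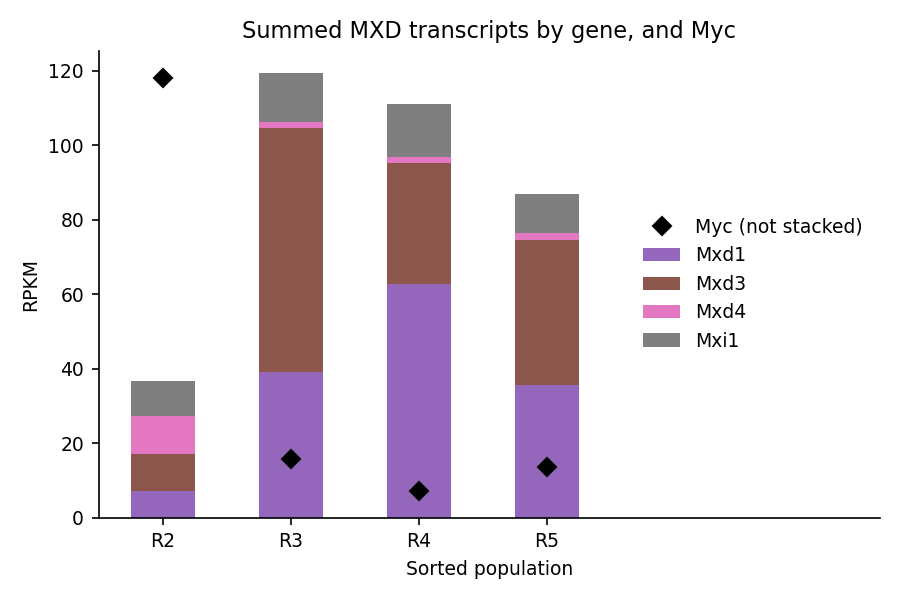
Stacked RPKM of the 4 MXD genes in R2, R3, R4 and R5, with Myc as diamonds. The stack is 87.0 RPKM in R5, against 36.8 in R2, and Myc is above the stack in R2 and far below it elsewhere.

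Genes around the network were followed in lists of cofactors and targets known for MYC. Of 37 MYC-induced target genes past the filter, 35 were at least 2-fold lower in R5 than in R2 and 0 higher, with a median log2 ratio of -2.71 against the all-gene -1.65 and 76.9% of genes lower. With median scaling 26 were lower and 1 higher, with a median of -1.18 against -0.42 and 13.7% of genes lower. Npm1, a nucleolar chaperone, was at 592 RPKM in R2, 75.7 RPKM in R3, 37.7 RPKM in R4 and 61.3 RPKM in R5, the order of libraries seen in Myc. Apex1, a base excision repair enzyme, had the lowest ratio, -3.50. Ldha, lactate dehydrogenase A, was at 801, 117, 51.4 and 121 RPKM across R2, R3, R4 and R5. Odc1, the first enzyme of polyamine synthesis, was highest in R3, at 131, 265, 172 and 115 RPKM across R2, R3, R4 and R5, and Pcna, the replication clamp, was at 600, 651, 162 and 195 RPKM across R2, R3, R4 and R5. In R5 against R4, 10 of the 37 were higher and 1 lower, with a median of 0.81 against 0.27 and 3.96% of genes higher. With median scaling 0 were higher. The 1 lower was Tfrc, the gene of CD71, on which the cells were sorted. Markers of other cell types were also higher in R5 than in R4 as deposited. These were 4 of 8 for megakaryocytes, 4 of 8 for hepatocytes, 4 of 10 for macrophages and 3 of 11 for granulocytes. With median scaling 4, 1, 2 and 0 of them were higher, in the same order, beside 1.75% of genes. The part of these markers in the target values was not tested. For R5 against R2 the granulocyte markers moved in the same direction as the targets, 11 of 11 lower in R5 than in R2 under both scalings, with medians of -3.61 as deposited and -2.03 with median scaling, and their part in the target list was not tested. The E-box was in 9 of 33 induced targets with a promoter entry, 4 of 13 repressed targets, 4 of 20 turnover genes, 2 of 20 cofactors, 1 of 13 corepressors, 2 of 6 related bHLH genes and 0 of 9 cell cycle genes, beside 8.09% of all genes.

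Of 14 MYC-repressed targets, 2 stood higher and 2 lower in R5 than R2 as deposited, with a median of -0.13, beside 2.74% and 76.9% of all genes. With median scaling 8 were higher and 0 lower, beside 9.42% and 13.7%. Gadd45a, a growth arrest gene, was at 29.6 RPKM in R2, 99.1 RPKM in R3, 187 RPKM in R4 and 145 RPKM in R5, a ratio of 2.26. Btg2, an antiproliferative gene, was at 10.4, 52.7, 39.5 and 26.5 RPKM across R2, R3, R4 and R5, and Ddit3, a stress factor, at 22.5, 34.3, 16.6 and 24.5 RPKM across R2, R3, R4 and R5. Sesn2, a stress-induced regulator, had the lowest ratio, -1.80. Among cell cycle genes, of 10, 4 were lower and 1 higher in R5 than in R2 as deposited, with a median of -0.71, where 76.9% of all genes were lower and the all-gene median was -1.65. Median scaling gave 0 lower and 3 higher, beside 13.7% and 9.42% of genes. Ube2c, which drives mitotic exit, was at 131, 411, 407 and 446 RPKM in R2, R3, R4 and R5, and Rrm2, a ribonucleotide reductase subunit, at 128, 291, 106 and 102 RPKM in those libraries. The helicase genes Mcm2 and Mcm5 had ratios of -2.04 and -2.19.

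All 23 MYC cofactor genes were lower in R5 than in R2 as deposited, with a median of -2.00 beside the all-gene -1.65 and 76.9% of genes lower. With median scaling 5 were lower, with a median of -0.53 beside -0.42 and 13.7% of genes. Ruvbl2, a helicase of the TIP60 complex, was at 210, 34.7, 15.6 and 26.0 RPKM in R2, R3, R4 and R5, a ratio of -2.97. Smarcb1, a subunit of the SWI/SNF remodelling complex, had a ratio of -2.07 and Epc1, of the TIP60 complex, one of -1.003. Of 19 corepressor genes, 18 were lower as deposited and 2 with median scaling, beside 76.9% and 13.7% of all genes. The medians of that corepressor list were -1.72 and -0.43, beside all-gene medians of -1.65 and -0.42. Hdac1, a deacetylase of the corepressor complex, was at 57.6, 27.0, 11.3 and 13.7 RPKM across R2, R3, R4 and R5. The histone-binding genes Rbbp4 and Rbbp7 had ratios of -1.01 and -2.79. The corepressor medians were thus close to those of all genes.

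Of 22 genes of MYC protein turnover, 18 were lower and 1 higher as deposited, beside 76.9% and 2.74% of all genes. Median scaling gave 4 lower and 3 higher, beside 13.7% and 9.42%. The deposited median of -1.65 was that of all genes. The 1 gene higher as deposited was Pim1, a kinase that phosphorylates MYC, with a ratio of 1.95. Pim1 was at 59.2 RPKM in R2, 192 RPKM in R3, 283 RPKM in R4 and 232 RPKM in R5. Set, a phosphatase inhibitor, had the lowest ratio, -2.99, the ubiquitin-conjugating enzyme gene Cdc34 one of -1.41, and Gsk3a, which encodes a kinase that marks MYC for degradation, one of -0.97. Of 4 related bHLH genes past the filter, 4 were lower as deposited, beside 76.9% of all genes, and 1 with median scaling, beside 13.7%. Mlxip, the Mondo partner of MLX, was at 9.64, 1.45, 0.59 and 1.03 RPKM across R2, R3, R4 and R5, and the E-box factors Usf1 and Usf2 had ratios of -2.02 and -1.40.

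**Figure D5:**
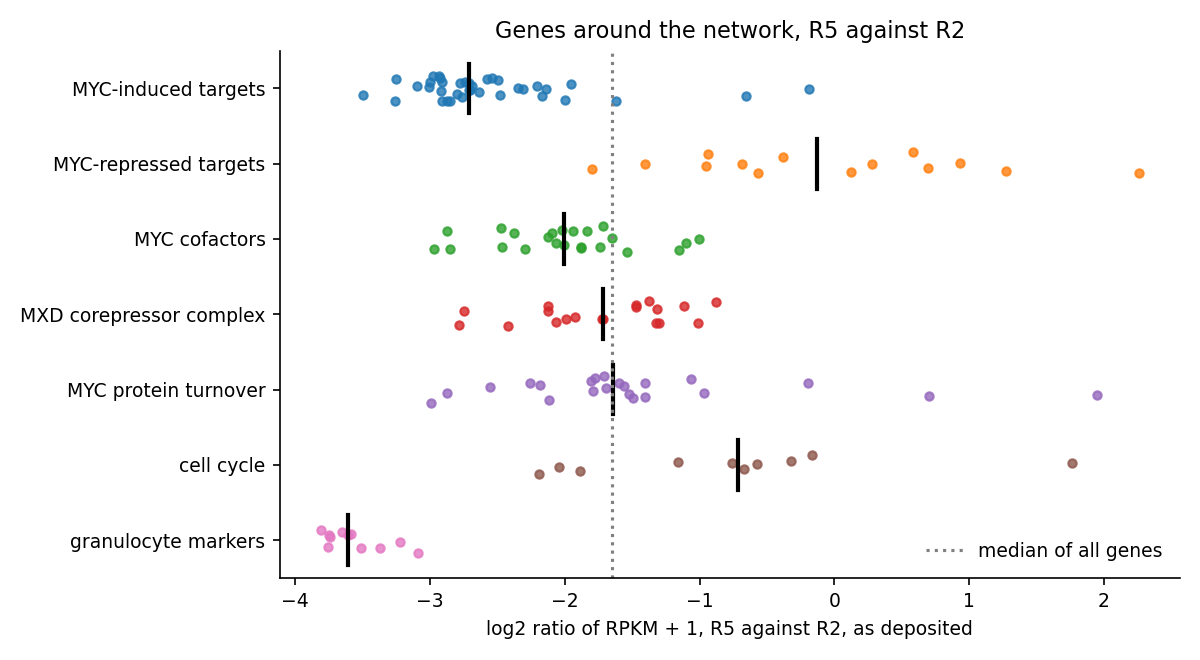
The log2 ratio of RPKM + 1, R5 against R2 as deposited, for each gene past the filter in 6 lists around the network and in the granulocyte markers. Black bars are list medians and the dotted line is the all-gene median of -1.65. MYC-induced targets (median -2.71) and granulocyte markers (-3.61) lie to its left, MYC-repressed targets (-0.13) to its right.

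The genes whose course was most like that of Myc over the 4 libraries, by Euclidean distance of centred log2(RPKM + 1) among 5589 genes at 10 RPKM or more, were Gm5483, Hspd1, Mybbp1a, Fam65a and Pgd. Their distances lay between 0.0331 and 0.0683. Hspd1, the mitochondrial chaperonin, was at 314, 43.4, 21.4 and 38.2 RPKM in R2, R3, R4 and R5. For Mxd3, the MXD gene with the highest mean as deposited, at 36.8 RPKM beside 36.1 RPKM for Mxd1, they were Mgst3, Plek2, Gmpr, Adra2b and Naprt1, at distances of 0.203 to 0.445. Mgst3, a glutathione transferase, was at 128, 652, 345 and 389 RPKM across R2, R3, R4 and R5. With the possible Prelid1 reads taken away, Mxd3 was set to its lower limit of 0 RPKM in R2, and its neighbours were not recomputed for that case. Each likeness rests on these 4 libraries alone.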

How the data were processed

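The authors deposited RPKM for each gene symbol, with 1 library per population, on build mm9 per the submitters' processing notes. The aligner, counting program, annotation and gene length were not given in the sources used here. Members and lists were chosen with earlier results of these data known, and of each list the 3 genes with the highest mean and those with the highest and lowest R5 to R2 ratio, among genes at 5 RPKM or more in either, were named, besides the 5 nearest neighbours of Myc and of Mxd3. A gene that this rule takes is not reported here.

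Genes at 1 RPKM or more in at least 1 library were kept. Ratios between libraries are of RPKM + 1, called at 2-fold. Reads per gene were estimated from the step of the values of 6 genes and exonic lengths of the GENCODE annotation of GRCm38. The 95% intervals are exact Poisson intervals (for the ratio of Myc to MXD, a normal approximation on the log scale) and cover counting error only. Median scaling used 2745 genes at 5 RPKM or more in every library. Globin removal left out 8 genes, a pattern widened by 1 gene after seeing the data. Of 191 list entries, 188 were matched. The 2-fold calls and the median scaling were tested on simulated reads, and the other steps were not. Python 3.11.15 was used with pandas 2.3.3, numpy 2.4.6 and scipy 1.17.1. Alternatives are given in the closing section.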

Additional observations from a re-analysis of the deposited data

How the results depend on the processing

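Under every pseudocount, filter and scaling run, Myc was past the 2-fold limit on the lower side, and Mxd1 and Mxd3 on the higher side, in both R5 against R2 and R3 against R2. Counts of members depended on the scaling. For R5 against R2, 5 were lower as deposited, beside 76.9% of genes, but 1 under median scaling, beside 13.7%. Once globins were removed 3 were lower, beside 29.8%. For R3 against R2, 5 were lower as deposited, beside 55.1% of genes. A pseudocount of 5 RPKM gave 3, beside 2969 of 9942 genes. Either rescaling gave 2, beside 18.0% of genes with median scaling and 22.8% with globins removed. For R4 against R3, 2 were lower as deposited, beside 32.1% of genes. A pseudocount of 0.1 RPKM gave 3, beside 5880 of 9942 genes, and one of 5 RPKM gave 0, beside 970. Either rescaling gave 0 lower, beside 0.382% of genes with median scaling and 2.83% with globins removed. Under median scaling 2 were higher, beside 4.26% of genes, and 1 once globins were removed, beside 1.98%. For R5 against R4, 1 was lower under median scaling, beside 2.56% of genes.

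The Myc to MXD ratio in R2 was 2.31 with Mnt added, 4.43 without Mxd3, and 2.92 with 1 RPKM added to each gene. Against the geometric mean of the MXD genes, also with 1 RPKM added to each gene, it was 11.8. With the possible Prelid1 reads taken from Mxd3, a choice made after seeing the data, it was 4.43. That choice set Mxd3 to 0 in R2. Without Mxd3 it was 0.293 for R3, 0.0918 for R4 and 0.283 for R5, which puts R3 above R5. Against the geometric mean, again with 1 RPKM added to each gene, it was 0.949 for R3, 0.483 for R4 and 0.997 for R5. That form sets Myc beside a mean and not a sum, so its size cannot be compared with the main ratio. The ratio to the sum with 1 RPKM added to each gene was 0.0713 for R4.

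Counts over all genes, higher then lower, are given in the order as deposited, median scaling, globins removed. These are counts out of 9942 genes, or 9934 with globins removed. They were 272 and 7643, 937 and 1367, and 730 and 2961 for R5 against R2, where a pseudocount of 5 RPKM gave 4751 lower. They were 379 and 5477, 833 and 1789, and 776 and 2262 for R3 against R2, where that pseudocount gave 251 and 2969. They were 49 and 3194, 424 and 38, and 197 and 281 for R4 against R3, where it gave 24 and 970, and 0.1 RPKM gave 74 and 5880. They were 394 and 60, 174 and 255, and 296 and 157 for R5 against R4, where it gave 79 and 21, and 0.1 RPKM gave 1587 and 155. The cause of these shifts was not tested. With 1 library per population, low genes such as Mycn and Mycl1 are limited by depth. No paired analysis was possible because each population has 1 library.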
